A study of Homo sapiens with 12 samples.

Results

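A set of 10 genes of the mesenchymal and contractile cytoskeleton was followed across sorted populations of 2 pancreatic cancer cell lines. These were the intermediate filament gene *VIM*, the actins *ACTA2* and *ACTG2*, the tropomyosins *TPM1* and *TPM2*, the calponins *CNN1* and *CNN3*, and *CALD1*, *TAGLN* and *MYL9*. They were picked by symbol, and all 10 were found among the 23346 genes of the deposited expression table. The study compared cells that carry the antigen of the GCTM-5 antibody, a mouse IgG1 that binds a glycoprotein complex on pancreatic carcinoma cells, with cells that lack it. RNA-seq was made from 12 samples in 4 groups of 3, namely GCTM-5 negative and GCTM-5 positive SW1990 cells and GCTM-5 negative and GCTM-5 positive CFPAC-1 cells. SW1990 and CFPAC-1 are established human lines of pancreatic adenocarcinoma. Both were grown as monolayers, stained with the antibody and sorted, and the gates kept strongly positive and negative cells, so that cells of intermediate staining were in no group. No drug or genetic change was applied to any group. The study describes triplicate sorts, and nothing says whether the sorts began from separate cultures, so p-values cover the spread between these sorts of 1 line and not between tumours.

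Vimentin is an intermediate filament protein that marks mesenchymal cells, and carcinoma cells gain it when they lose epithelial features. The other members act on actin filaments. Tropomyosins lie along the filament and set which motors can bind it, caldesmon (CALD1) and the calponins bind actin and hold back myosin, transgelin (TAGLN) crosslinks actin, and MYL9 is a regulatory light chain of the myosin II motor. *ACTA2*, *ACTG2*, *CNN1* and *TAGLN* are classical genes of smooth muscle, and *ACTA2* and *TAGLN* are also used to mark the myofibroblasts of tumour stroma. Serum response factor (SRF) drives many of these genes through a sequence called the CArG box.

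Levels are RPKM, reads scaled by gene length and library size. Whole reads could be worked out from the RPKM steps, and the 12 libraries held from 9969697 to 26159330 reads, the fewest in GCTM-5 positive CFPAC-1 replicate 3. After a filter on mean level, 16236 genes were tested with limma on log2(RPKM + 0.1), and fold changes are on that scale, which understates changes of low genes. Calls needed a change of more than 2-fold and p under 0.01 before adjustment. For a difference between the lines in the change with GCTM-5, the limit was a p of 0.05 after Benjamini-Hochberg adjustment. Of the 10 members 8 passed the filter, and *CNN1* and *ACTG2* did not. The line and sort comparisons share samples and are not independent of each other.

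In SW1990, *VIM*, *MYL9*, *CALD1* and *TPM1* were lower in GCTM-5 positive than in negative cells, by 2.55-fold for *TPM1* to 5.17-fold for *VIM*. These 4 of the 8 tested members were called lower and 0 were called higher, where 7.48% of all tested genes were called lower and 4.59% higher. In CFPAC-1 the members split, with *CALD1* (6.32-fold) and *CNN3* (2.48-fold) higher and *TAGLN* (2.64-fold) and *MYL9* (2.15-fold) lower in positive cells. There, 5.65% of all tested genes were called higher and 4.13% lower. Samples of the sorts did not overlap for 5 members lower in positive SW1990 cells and 0 higher, against 25.4% and 17.9% of all genes, and in CFPAC-1 for 3 higher and 2 lower, against 28.1% and 20.4%. The median log2 change of the 8 members was -1.24 in SW1990 and -0.14 in CFPAC-1, beside -0.04 and 0.05 over all genes tested. *MYL9* was the member called lower in both lines, as were 1.24% of all genes, and *CALD1* the member called lower in SW1990 and higher in CFPAC-1, as were 0.456%.

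**Figure D1:**
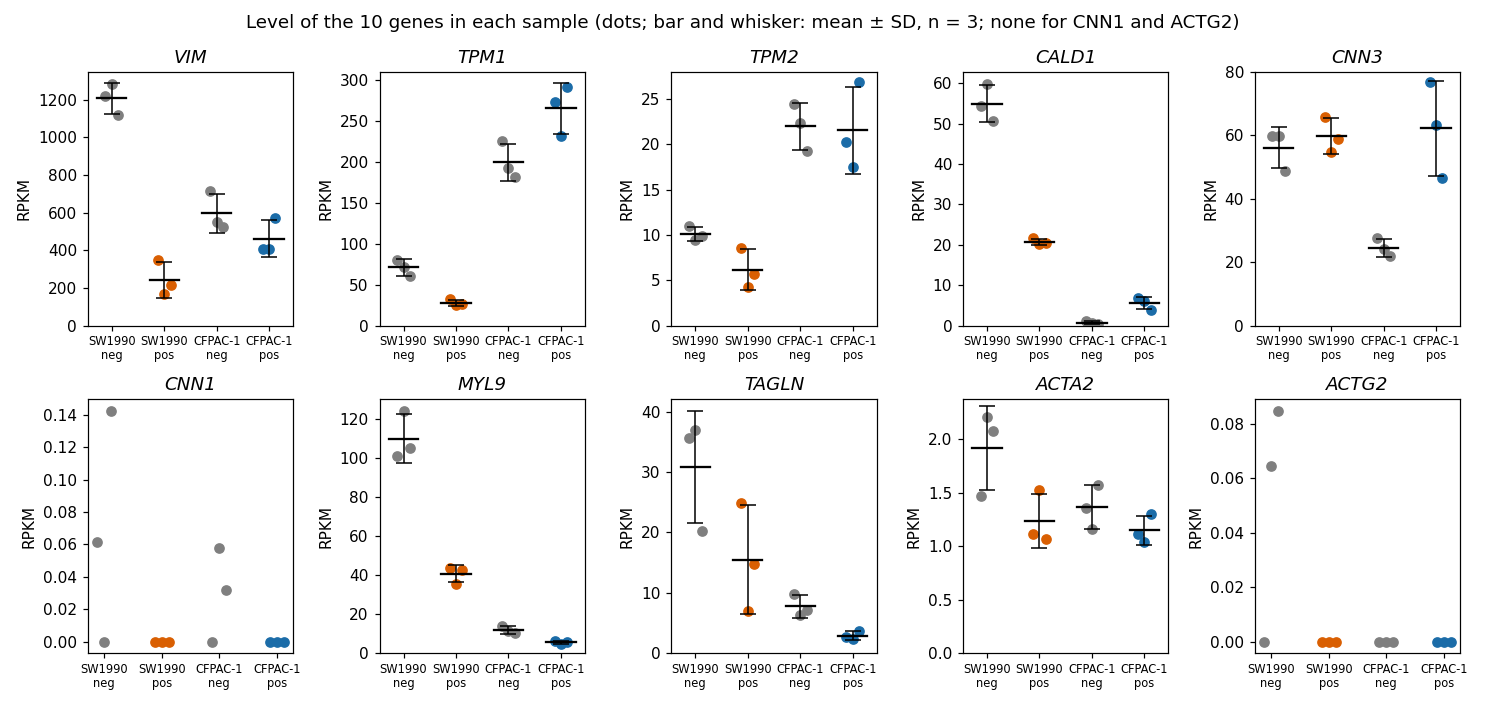
Level in RPKM (vertical axes, linear and different for each gene) of the 10 genes in the 12 samples, with GCTM-5 negative samples in grey, positive SW1990 in orange and positive CFPAC-1 in blue; the bar is the mean and the whisker the SD of 3 samples, not drawn for *CNN1* and *ACTG2*. The 3 negative SW1990 samples lie above all other samples for *VIM*, *CALD1* and *MYL9*, whereas *CALD1* in negative CFPAC-1 cells is at 1.10 RPKM or less.

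On GRCh37, the build the reads were aligned to, *VIM* lies at chr10:17270240-17279592, *ACTA2* at chr10:90694831-90751096, *TAGLN* at chr11:117070086-117078180, *TPM1* at chr15:63334819-63364114, *TPM2* at chr9:35681989-35690053 and *MYL9* at chr20:35169900-35179850. *CALD1* lies at chr7:134429003-134655480, *CNN1* at chr19:11649582-11661138, *CNN3* at chr1:95362505-95392779 and *ACTG2* at chr2:74119441-74146992. The minus strand carries *ACTA2*, *TPM2* and *CNN3*. In GENCODE 44 on GRCh37 an antisense RNA or another gene overlaps *VIM*, *ACTA2*, *TAGLN*, *TPM1*, *MYL9* and *CALD1* on the opposite strand, and an unnamed gene overlaps *ACTA2*, *TAGLN* and *CALD1* on their own strand. Whether the authors counted by strand is not given in the sources used here, so their reads could include those of these partners.

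Promoters of 8 of the 10 members, from 250 bases before to 50 after the transcription start, were read from RefSeq on GRCh38.p14. *TAGLN* and *MYL9* had no entry. The CArG box, CC and GG around a run of A and T, was searched on both strands, as was the same box with 1 base of the run changed and the MCAT motif CATTCC, which TEAD factors bind. Of 35116 RefSeq promoters 1.29% held a CArG box, 6.94% a changed box and 14.0% an MCAT motif. Below are the matches in smooth muscle actins and in the 2 members called higher in positive CFPAC-1 cells. The motif is in capitals, and each is read 5′ to 3′ along its gene.
ACTG2, CArG box, chr2:73892888-73892917: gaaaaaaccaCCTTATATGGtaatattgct
ACTG2, CArG box, chr2:73892925-73892954: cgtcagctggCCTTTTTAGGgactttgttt
ACTA2, changed CArG box, chr10:88952875-88952904: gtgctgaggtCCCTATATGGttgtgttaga
ACTA2, changed CArG box, chr10:88952825-88952854: tgtctttgctCCTTGTTTGGgaagcaagtg
ACTA2, MCAT motif on the other strand, chr10:88952941-88952966: gcagaccagtGGAATGcagtggaaga
CALD1, changed CArG box, chr7:134711463-134711492: ccagaggtccCCTAAAGAGGaatacattct
CALD1, MCAT motif, chr7:134745415-134745440: gttaagtctgCATTCCgctactggat
CALD1, MCAT motif on the other strand, chr7:134779430-134779455: gcatgcctagGGAATGacaggcatct
CNN3, MCAT motif, chr1:94925896-94925921: tccctccctgCATTCCaagcccatga
The *CALD1* matches stand in 3 of its 4 listed promoters. None of these letters was found in the listed windows of *VIM*, *TPM1*, *TPM2* and *CNN1*. The matches describe sequence only, and no binding was measured.

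*VIM* was the most abundant member in each group and made up 77.9 to 79.0% of the summed RPKM of the 10 genes in negative SW1990 cells. The 3 negative SW1990 samples read 1219, 1286 and 1120 RPKM, and *VIM* stood at rank 16 of all genes in each of them. The 3 positive SW1990 samples read 350, 167 and 217 RPKM. All negative SW1990 samples were far above all positive ones, a log2 change of -2.37 ± 0.24 (SE, limma adjusted p = 1.45e-05). In such bulk libraries fewer vimentin-rich cells and less *VIM* RNA per cell cannot be told apart, and this holds for every member.

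Negative CFPAC-1 samples had 717, 552 and 526 RPKM of *VIM*, and positive ones 407, 406 and 574 RPKM. These ranges overlapped, and the log2 change of -0.38 ± 0.24 did not pass (limma adjusted p = 0.235). Its 95% interval, from -0.89 to 0.14, does not include the change seen in SW1990. The test of the difference between lines gave -1.99 ± 0.34 in log2 (limma adjusted p = 0.00114), beside 17.8% of all genes called with a lower change in SW1990 and 9.16% with a higher one. By mean level the groups ran from negative SW1990 (1208 ± 83.2 RPKM, SD, n = 3) through negative CFPAC-1 (598 ± 104) and positive CFPAC-1 (463 ± 96.9) to positive SW1990 (245 ± 94.9).

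Set beside the simple keratins *KRT7*, *KRT8*, *KRT18* and *KRT19*, the intermediate filaments of ductal epithelium, *VIM* made up 38.9 to 41.9% of their summed RPKM in negative SW1990 samples and 3.93 to 7.10% in positive ones. In CFPAC-1 its share was 8.62 to 12.3% in negative samples and 5.78 to 6.85% in positive ones. The shares did not overlap between the sorts in either line, and the mean differed by -35.2 points in SW1990 and -3.67 points in CFPAC-1 (exact permutation test, 2-sided, p = 0.1 each, adjusted p = 0.167 over 15 share comparisons). With 3 samples against 3 that test cannot go below 0.1. *KRT8*, *KRT18* and *KRT19* rose in positive SW1990 cells, with log2 changes of 1.39, 1.29 and 1.57, so both sides of the ratio moved there. In CFPAC-1 0 of the 4 keratins were called, but 3 were higher in positive cells at a limma adjusted p under 0.05. Mean RPKM there went from 178 to 335 for *KRT7*, 1703 to 2776 for *KRT8* and 761 to 1233 for *KRT18*. *KRT19* went from 2854 to 2596, so the CFPAC-1 share of *VIM* also moved with the keratins.

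*TPM1*, a tropomyosin of muscle and non-muscle filaments, was higher in CFPAC-1 than in SW1990 whatever the sort. Negative SW1990 samples read 80.8, 71.8 and 60.9 RPKM, and positive ones 32.1, 25.0 and 26.2. In CFPAC-1 the negative samples read 225, 192 and 181 RPKM and the positive ones 272, 231 and 291. Neither line had overlapping sorts, and the direction was down in SW1990 and up in CFPAC-1. It fell in SW1990 by 1.35 ± 0.14 on the log2 scale (limma adjusted p = 1.57e-05). In CFPAC-1 the log2 change of 0.41 ± 0.14 stayed under 2-fold (limma adjusted p = 0.0346), and the lines differed by -1.76 ± 0.19 (limma adjusted p = 6.97e-05).

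*TPM2*, which encodes beta-tropomyosin, was lower than *TPM1* in every sample. It read 11.0, 9.50 and 9.91 RPKM in negative and 8.61, 4.27 and 5.70 in positive SW1990 samples, with no overlap but a log2 change of -0.76 ± 0.22 that stayed under 2-fold (limma adjusted p = 0.0230). Without positive SW1990 replicate 1, the highest of its group, the log2 change was -1.02 and passed, and without positive replicate 2, the lowest, it was -0.52 (limma adjusted p = 0.0869). In CFPAC-1 it read 24.4, 22.3 and 19.3 RPKM in negative and 20.2, 17.5 and 26.8 in positive samples, overlapping, with a log2 change of -0.05 and an interval from -0.53 to 0.44. The difference of *TPM2* between lines was -0.71 ± 0.31 (limma adjusted p = 0.115). It was -0.97 and passed without positive SW1990 replicate 1 (limma adjusted p = 0.0146), and -0.48 without positive replicate 2.

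Most tropomyosin RNA came from *TPM4*, a cytoskeletal form, with a mean 70.3% of the RPKM of the 4 tropomyosin genes in negative and 72.6% in positive SW1990 cells. The share of *TPM1* went from 12.4 to 15.2% in negative SW1990 samples to 5.97 to 7.12% in positive ones. In CFPAC-1 it went the other way, from 29.9 to 33.4% in negative samples to 39.3 to 45.4% in positive ones. *TPM4* held 58.7% of negative and 42.1% of positive CFPAC-1 tropomyosin RPKM, so *TPM1* was level with it in positive cells. Each shift of the *TPM1* share reached the smallest p that the exact permutation test allows, 0.1 (2-sided, adjusted p = 0.167). Shares of *TPM2* were small, between 1.02 and 4.04% in all samples, and overlapped between the sorts in each line.

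*CALD1* changed in opposite directions in the 2 lines. It read 54.3, 59.8 and 50.7 RPKM in negative SW1990 samples and 21.7, 20.1 and 20.5 in positive ones. In CFPAC-1 it read 1.10, 0.781 and 0.556 RPKM in negative samples and 6.87, 6.11 and 3.93 in positive ones. No group overlapped with another, and the means spanned 67.6-fold from negative CFPAC-1 to negative SW1990. The low values rest on 61 to 118 reads per negative CFPAC-1 sample, and the positive CFPAC-1 values on 216 to 989 reads.

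*CALD1* fell in positive SW1990 cells by 1.40 ± 0.22 on the log2 scale (limma adjusted p = 0.000517) and rose in positive CFPAC-1 cells by 2.66 ± 0.22 (limma adjusted p = 1.64e-05). The difference between lines, -4.06 ± 0.31 (limma adjusted p = 7.85e-06), was the largest in size among the 8 tested members. Over 24 settings of the analysis its log2 change ran from -1.47 to -1.33 in SW1990 and from 1.86 to 2.89 in CFPAC-1. Some of these settings cannot move the log2 change, and *CALD1* was called in all of them. After the change the lines remained apart, with *CALD1* 3.68-fold higher by mean RPKM in positive SW1990 than in positive CFPAC-1 cells.

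*CNN3*, the acidic calponin of non-muscle cells, moved in CFPAC-1. Its negative samples read 27.7, 24.2 and 22.1 RPKM and its positive ones 76.8, 63.2 and 46.7, without overlap, a rise of 1.31 ± 0.16 in log2 (limma adjusted p = 0.000155). In SW1990 the negative samples read 59.9, 59.9 and 48.8 RPKM and the positive ones 65.7, 54.7 and 59.0. Those overlapped, with a log2 change of 0.09 and an interval from -0.26 to 0.45, and the difference between lines was -1.22 ± 0.23 (limma adjusted p = 0.00240). The other groups thus lay together at means of 56.2 to 62.2 RPKM while negative CFPAC-1 cells lay apart at 24.7 ± 2.84 RPKM (SD, n = 3).

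Of the summed RPKM of *CNN1*, *CNN2* and *CNN3*, the *CNN3* share in CFPAC-1 was 17.7 to 22.0% for the negative sorts and 35.7 to 48.5% for the positive sorts. *CNN2*, a widely expressed calponin, held the rest, 102 ± 3.01 RPKM in the negative CFPAC-1 group and 84.5 ± 3.52 in the positive group. The *CNN3* share in SW1990 was 23.4 to 27.8% for the negative sorts and 20.8 to 24.8% for the positive sorts, which overlapped (exact permutation test, 2-sided, p = 0.3).

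*CNN1*, the calponin of differentiated smooth muscle, was close to absent at this depth. Negative SW1990 samples held 2, 0 and 4 reads, negative CFPAC-1 samples 0, 2 and 1, and all positive samples 0. A count of 0 allows up to 3 reads, or from 0.0724 to 0.190 RPKM of *CNN1* across the positive samples, so no difference could be read.

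*MYL9* was the member called lower in positive cells of both lines. In SW1990 it read 101, 124 and 105 RPKM in negative samples and 43.6, 35.6 and 42.6 in positive ones. In CFPAC-1 it read 14.1, 11.2 and 10.2 RPKM in negative samples and 6.23, 4.54 and 5.53 in positive ones. The 4 groups did not overlap and ran from negative SW1990 down to positive CFPAC-1, 20.2-fold apart by mean.

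The log2 change of *MYL9* was -1.44 ± 0.15 in SW1990 (limma adjusted p = 1.93e-05) and -1.11 ± 0.15 in CFPAC-1 (limma adjusted p = 0.000241). The difference between these changes, -0.33 with an interval from -0.79 to 0.13, did not pass (limma adjusted p = 0.274). In CFPAC-1 it lay near the 2-fold limit, and without negative replicate 1 or positive replicate 2 its log2 change was -0.97 or -0.98, under that limit with adjusted p still at 0.00113 or less. Among the regulatory light chains *MYL9*, *MYL12A* and *MYL12B*, its share of RPKM in SW1990 was 15.2 to 15.8% for the negative sorts and 5.00 to 6.87% for the positive sorts. In CFPAC-1 it was 4.89 to 6.08% and 2.03 to 2.83%, again without overlap. Neither *MYL12A* nor *MYL12B* was called in either line, and their log2 changes lay between -0.26 and 0.28.

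*TAGLN* varied widely within groups. It read 35.6, 36.9 and 20.2 RPKM in negative and 24.9, 6.92 and 14.7 in positive SW1990 samples. In these, negative replicate 3 lay below positive replicate 1, and the log2 change of -1.12 ± 0.39 did not pass (limma adjusted p = 0.0522). Leaving out 1 sample moved it from -0.64 without positive SW1990 replicate 2 (limma adjusted p = 0.185) to -1.55 without positive replicate 1. It passed in the latter fit and, at -1.40, without negative replicate 3.

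CFPAC-1 samples read 9.83, 6.23 and 7.12 RPKM of *TAGLN* when negative and 2.63, 2.26 and 3.74 when positive, with no overlap. The log2 change of -1.40 ± 0.39 was called (limma adjusted p = 0.0162). The call was lost without negative CFPAC-1 replicate 1 (-1.22), positive replicate 1 (-1.35) or positive replicate 2 (-1.25). The difference between lines was 0.28 with an interval from -0.94 to 1.49, too wide to tell whether the changes were alike. *TAGLN2*, the transgelin of non-muscle cells, was far more abundant, with log2 changes of -0.01 in SW1990 and -0.54 in CFPAC-1.

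The smooth muscle actins were low throughout. *ACTA2* read 1.47, 2.20 and 2.08 RPKM in negative and 1.11, 1.53 and 1.07 in positive SW1990 samples. Its CFPAC-1 samples read 1.36, 1.16 and 1.57 RPKM when negative and 1.12, 1.04 and 1.30 when positive, on 24 to 95 reads per sample across both lines. The sorts overlapped in each line. The log2 changes of -0.59 ± 0.21 in SW1990 (limma adjusted p = 0.0546) and -0.22 ± 0.21 in CFPAC-1 (limma adjusted p = 0.437) stayed under 2-fold and did not pass.

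*ACTA2* made up a mean 0.0356% of the RPKM of the 6 actin genes in negative SW1990 cells and 0.0185% in positive ones, and 0.0298% and 0.0200% in CFPAC-1. These shares did not overlap between the sorts in either line (exact permutation test, 2-sided, p = 0.1 each, adjusted p = 0.167). The mean actin sum was itself higher in positive cells, at 6665 against 5379 RPKM in SW1990 and 5753 against 4593 in CFPAC-1. The lower shares therefore reflect that sum as well as *ACTA2*, whose own RPKM overlapped. Nearly all actin RNA came from the cytoplasmic *ACTB* and *ACTG1*, and *ACTB* alone read 2384 to 3991 RPKM as group means. *ACTG2*, the enteric smooth muscle actin, read 0, 0.0646 and 0.0850 RPKM in negative SW1990 samples, which can be as little as 1 read each where it was above 0, and 0 in the other 9 samples. A count of 0 allows up to 3 reads, or 0.174 to 0.457 RPKM in those 9 samples if the gene's length is the smallest that fits, so the groups could not be told apart.

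**Figure D2:**
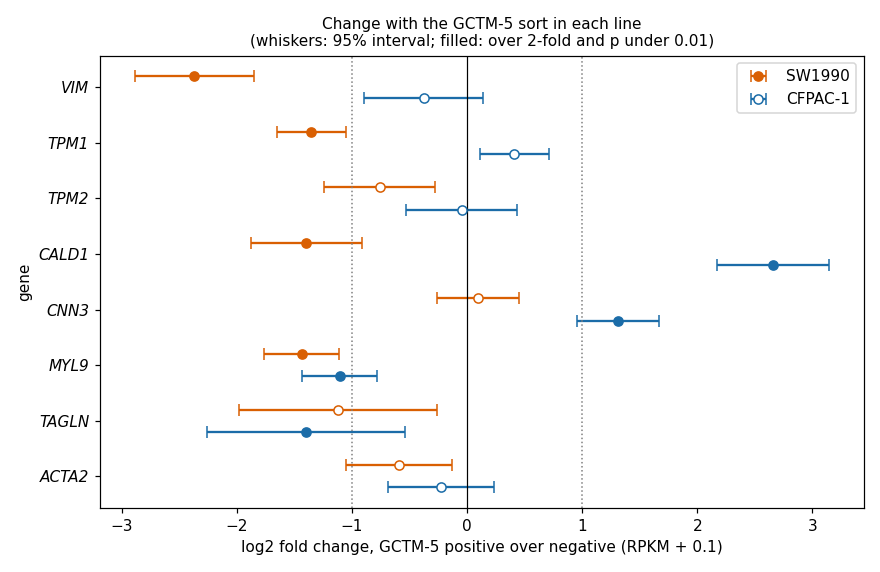
Log2 fold change of GCTM-5 positive over negative cells (horizontal axis, on RPKM + 0.1) for the 8 tested members in SW1990 (orange) and CFPAC-1 (blue), with 95% intervals; filled points passed 2-fold and p under 0.01, and dotted lines mark 2-fold. *CALD1* stands at -1.40 in SW1990 and 2.66 in CFPAC-1, and the *MYL9* points lie together on the left at -1.44 and -1.11.

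**Figure D3:**
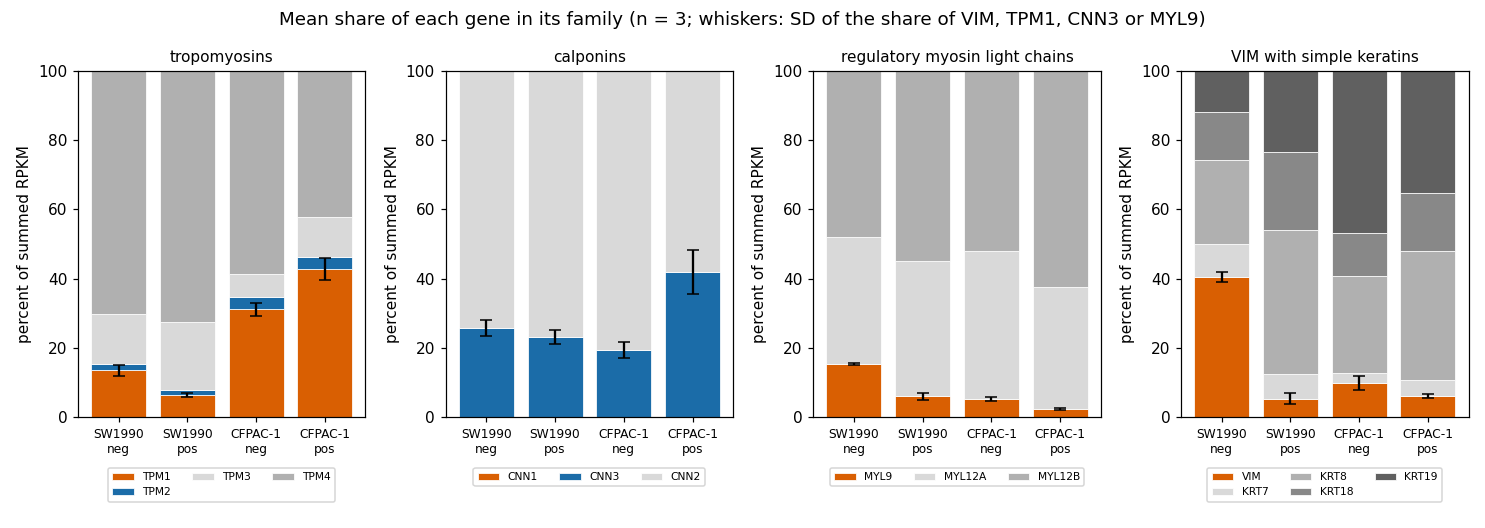
Mean share (vertical axis, percent of summed RPKM) of each gene within the tropomyosins, the calponins, the regulatory myosin light chains and *VIM* with the simple keratins, in the 4 groups; whiskers are the SD of 3 samples for *VIM*, *TPM1*, *CNN3* or *MYL9*. The *TPM1* and *CNN3* blocks grow in positive CFPAC-1 cells, to 42.9 and 42.0%, and the *VIM* block shrinks in positive SW1990 cells, from 40.6 to 5.35%.

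The lines themselves differed in most members, and these levels of the same samples are given as the base of the changes above. Among negative cells, 5 of the 8 tested members were called higher in SW1990 than in CFPAC-1, where 21.9% of all genes were, and 2 lower, where 15.0% were. *CALD1* was higher by 5.96 in log2, *MYL9* by 3.22, *TAGLN* by 1.96, *CNN3* by 1.18 and *VIM* by 1.03. *TPM1* and *TPM2* were lower, with log2 differences of -1.49 and -1.11. The median difference over all genes was 0.19 in this comparison. With each sample centred on its median it was 0.01, and *VIM* at 0.84 and *CNN3* at 0.996 no longer passed 2-fold. The *VIM* difference was also under 2-fold without negative SW1990 replicate 2 (0.98) and without negative CFPAC-1 replicate 2 (0.97) or 3 (0.94), which left 4 members called higher.

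Among positive cells *MYL9* (2.89), *TAGLN* (2.24) and *CALD1* (1.90) were called higher in SW1990 in log2, as were 14.8% of all genes, and *TPM1* (-3.25) and *TPM2* (-1.82) lower, as were 13.7%. *VIM* was lower in positive SW1990 than in positive CFPAC-1 cells in every sample, the reverse of its order in negative cells. That log2 difference of -0.97 ± 0.24 was just under 2-fold (limma adjusted p = 0.00361), and it ran from -1.26 without positive SW1990 replicate 1 to -0.73 without positive SW1990 replicate 2. It also passed 2-fold without positive CFPAC-1 replicate 1 or 2 and with each sample centred on its median (-1.01). *CNN3* had a log2 difference of -0.03 with an interval from -0.39 to 0.32, and *ACTA2* one of 0.08 from -0.37 to 0.54.

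Of 55 other genes of the contractile cytoskeleton, 48 were tested. In SW1990 2 were called higher and 5 lower in positive cells, where 4.59% and 7.48% of all genes were. In CFPAC-1 3 were called higher and 1 lower, where 5.65% and 4.13% of all genes were. The median log2 changes of the list were -0.03 and 0.08, close to those of all genes. The changes of the list differed between lines for 10 genes with a higher and 13 with a lower value in SW1990, out of 48, beside 9.16% and 17.8% of all genes.

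*MYLK*, the kinase that activates the regulatory light chain of myosin II, had the lowest SW1990 change of the list. It went from 9.87 ± 1.24 RPKM in negative to 0.990 ± 0.0977 in positive SW1990 cells (SD, n = 3), a fall of 3.19 on the log2 scale (limma adjusted p = 1.58e-07). In CFPAC-1 it read 11.6 ± 0.937 RPKM when negative and 21.0 ± 4.08 when positive, a log2 change of 0.83 under the 2-fold limit (limma adjusted p = 0.00183). The difference of -4.02 between lines (limma adjusted p = 2.61e-06) was close in size to that of *CALD1*.

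*SYNPO*, an actin-binding protein of stress fibres, fell from 41.3 ± 1.99 to 7.63 ± 2.16 RPKM in positive SW1990 cells (log2 change -2.46). *MYH14*, a non-muscle myosin II heavy chain of epithelia, rose from 2.14 ± 0.584 to 16.6 ± 4.60 RPKM (log2 change 2.89), and *LIMA1*, which crosslinks actin, from 31.1 ± 1.81 to 69.9 ± 13.6 RPKM (log2 change 1.15). The 3 other genes called lower in SW1990 were the smooth muscle genes *DES*, *LMOD1* and *SYNPO2*, which fell outside the naming rule and were named after their values were seen. Each had a mean under 1 RPKM over all samples. *NES* (log2 change -0.90) and *CSRP1* (0.72), the remaining genes named by rule in SW1990, were not called.

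In CFPAC-1 *SMTN*, or smoothelin, rose from 5.52 ± 0.289 to 13.1 ± 1.95 RPKM (log2 change 1.23). *FLNC*, the muscle filamin, went from 2.04 ± 0.616 to 10.9 ± 6.80 RPKM (log2 change 2.10), and positive replicate 3 held 3.14 RPKM of it beside 13.7 and 15.9 in the others. *TAGLN3* was called higher and *LMOD1* lower, both at means under 1 RPKM over all samples and also named after their values were seen. *TAGLN3* was not called without negative replicate 2, positive replicate 1 or positive replicate 3 of CFPAC-1, nor was *LMOD1* without negative replicate 1 or positive replicate 3. *FHL2* (-0.93), *PDLIM7* (-0.62), *PDLIM5* (-0.57) and *CSRP2* (1.11) were named by rule and not called.

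*SRF* itself was not called in either line, with log2 changes of 0.10 in SW1990 and 0.34 in CFPAC-1. Its coactivator genes *MKL1* and *MKL2* were not called either, and *MYOCD*, the coactivator of smooth muscle, was listed at 0 in all 12 samples.

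**Figure D4:**
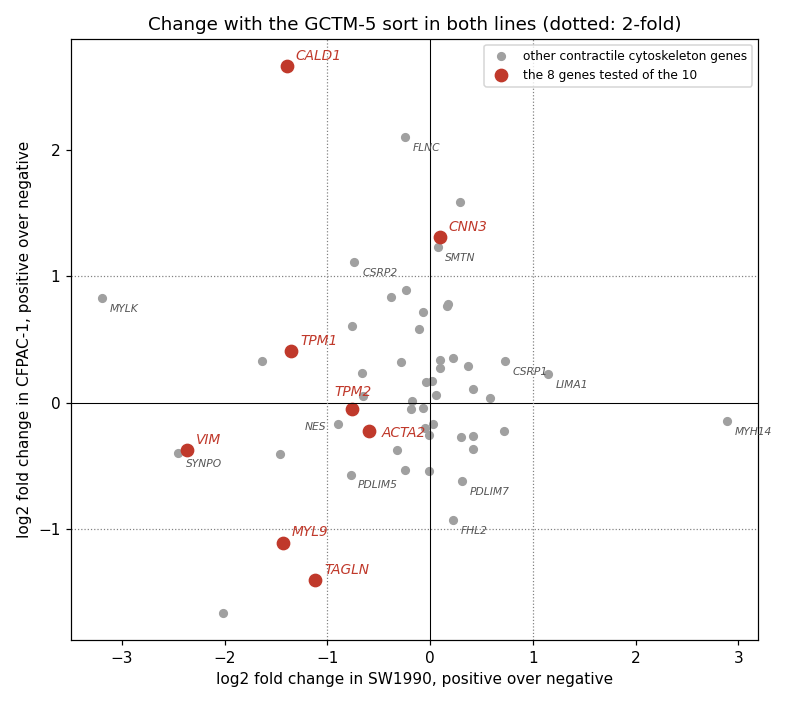
Log2 fold change of GCTM-5 positive over negative cells in SW1990 (horizontal axis) and CFPAC-1 (vertical axis) for the 8 tested members (red) and the 48 tested genes of the contractile cytoskeleton list (grey, those named by rule labelled); dotted lines mark 2-fold. *CALD1* lies in the upper left and *MYL9* and *TAGLN* in the lower left, and most grey points lie within 2-fold in both lines.

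Markers of other cell types were read in the same samples. The 8 epithelial markers summed to 1447 to 1681 RPKM in the negative SW1990 samples and to 4654 to 5013 in the positive ones. Of them 8 of 8 were called higher in positive cells, where 4.59% of all genes were. In CFPAC-1 the sums were 6685 to 7685 RPKM for negative and 7236 to 8750 for positive sorts, and 0 of 8 were called (2 were higher and 1 lower at a limma adjusted p under 0.05). These epithelial markers thus went up in positive SW1990 cells where the called members went down, and their part in the result was not tested.

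The 10 fibroblast markers summed to 12.9 to 22.9 RPKM in negative SW1990 samples, most of it *LUM* at a mean of 13.2, and to 3.90 to 4.88 in positive ones. In CFPAC-1 they summed to 1.42 to 2.40 RPKM over both sorts. *THY1* was at 0 in all samples, and *COL3A1*, *DCN* and *POSTN* were at 0 in the positive SW1990 and in both CFPAC-1 groups. Of the 10 markers 3 passed the filter. Of these 2 were called lower in positive SW1990 cells, where 7.48% of all genes were, and 0 in CFPAC-1. At a limma adjusted p under 0.05 all 3 were lower in SW1990, as were 2750 of 16236 tested genes. The part of the fibroblast markers in the result was not tested.

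Smooth muscle markers in SW1990 summed to 10.7 to 13.7 RPKM for negative and 9.07 to 13.1 for positive sorts, and in CFPAC-1 to 7.64 to 8.24 and 12.5 to 16.3. All 7 are also in the list of contractile cytoskeleton genes, and *SMTN* made up most of these sums. Beside *MYOCD*, *ACTC1* was at 0 in all groups but negative SW1990, and *DES* in negative CFPAC-1. Of the 7 markers 5 passed the filter, and 3 were called lower in SW1990, where 7.48% of all genes were. In CFPAC-1 there was 1 called higher and 1 lower, where 5.65% and 4.13% of all genes were. The part of these markers in the result was not tested either.

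Endothelial markers summed to 14.9 to 18.9 RPKM in negative SW1990 samples, almost all of it *CDH5* at a mean of 15.6, and to 1.47 to 2.05 in positive ones. They summed to 0.751 to 1.49 RPKM over all CFPAC-1 samples. Of the 5 endothelial markers 3 passed the filter. Of these 1 was called lower in positive SW1990 cells and 0 in CFPAC-1, where 7.48% and 4.13% of all genes were. Between negative cells of the lines 2 were called higher in SW1990 and 1 lower, where 21.9% and 15.0% of all genes were. *KDR* was at 0 in the negative SW1990 group, where *CDH5* was high. Leukocyte markers in SW1990 came to 0.946 to 1.85 RPKM for negative and 0.268 to 0.326 for positive sorts, and in CFPAC-1 to 8.73 to 9.57 and 2.64 to 4.38. *CD14* accounted for most of the leukocyte sum and fell in positive cells of both lines, as *MYL9* did, and *PTPRC*, which all leukocytes carry, was at 0 in negative CFPAC-1 cells. Their part in the members' changes was not tested.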

How the data were processed

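The 12 RNA-seq samples, 3 for each line and sort, were grouped as the labels give them. The deposited values are RPKM, which the authors made with QuasR from reads aligned to hg19/GRCh37. The annotation, the use of strand and the handling of multiply mapped reads are not given in the sources used here. The study names a TruSeq kit and the labels a strand-specific SureSelect kit. The submitters' processing notes name bcl2fastq.

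Since an RPKM multiplied by length counts reads relative to the library total, single-exon genes of GENCODE 44 on GRCh37 gave each total. For each gene the smallest length that made its values whole to within 0.01 of a read was then taken. Such a length was found for all 19654 genes above 0, which does not by itself check the totals. On simulated data 12 of 12 totals were exact, as were the reads of 98.84% of 17532 genes above 0 in at least 6 samples. In the deposited data *CNN1* and *ACTG2* were above 0 in fewer samples than that. Read numbers and limits for a count of 0 (3 reads) cover counting error only, and where few samples were above 0 the reads may be too low by a common factor.

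A mean of 0.1 RPKM or more over the 12 samples was required, which left 16236 of 23346 genes. Log2(RPKM + 0.1) was modelled with limma 3.58.1 in R 4.3.3 as 4 group means, with eBayes and an intensity trend, and contrasts were tested 2-sided. The study names TCC, which was not used. Calls needed over 2-fold and an unadjusted p under 0.01, and differences between lines a Benjamini-Hochberg adjusted p under 0.05. In simulated data, 99% of 100 genes raised and 97% of 100 genes lowered 4-fold in SW1990 were called, with 47 of 16036 unchanged genes. The changed genes were drawn from those of higher mean level, with normal noise on the log2 scale, so low genes were not covered. When 200 genes were changed in only SW1990, the test of the difference between lines found 87.5% of them. Shares of a gene in its family were compared by exact permutation tests of 3 samples against 3. Intervals of log2 changes are at 95%.

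The members and gene lists were chosen with earlier results of these data known. All members were named, and of the 55 contractile cytoskeleton genes those at the top 3 and bottom 3 places of the ranked change in each line, if their mean RPKM reached 1, plus the remaining genes of the families used for shares. Alternatives were pseudocounts of 1 and 0.01, no filter or a minimum mean of 1 RPKM, centring on the sample median, quantile normalization, each line alone, a replicate block, eBayes without trend, an adjusted p under 0.01, no fold limit, voom on recovered reads, and each sample left out. Promoters came from RefSeq on GRCh38.p14. Figures were drawn with matplotlib 3.10.9 in Python 3.11.15.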

Additional observations from a re-analysis of the deposited data

Results flagged for a closer look

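The change between GCTM-5 positive and negative cells differed between the lines, by the limma test of that difference, for 4 of the 8 tested members, all with a lower value in SW1990, as for 17.8% of all genes (9.16% had a higher one). The log2 change in SW1990 minus that in CFPAC-1 was -4.06 for *CALD1*, -1.99 for *VIM*, -1.76 for *TPM1* and -1.22 for *CNN3*. Only *CALD1* was called in both lines with opposite directions, while *VIM* and *TPM1* were called in SW1990 alone and *CNN3* in CFPAC-1 alone. Leaving out any 1 of the 12 samples kept all 4 differences past the threshold.

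The same test passed for 12 of the genes named from the contractile cytoskeleton list. Most of these were named for their rank by change in 1 of the lines, which favours a difference between lines. *CNN2* and *TAGLN2* were named as family genes, and *DES* and *SYNPO2* after their values were seen. Over the list of 48 tested genes, 10 had a higher and 13 a lower value in SW1990, beside 9.16% and 17.8% of all genes. The difference was -4.02 for *MYLK*, -2.34 for *FLNC*, -2.06 for *SYNPO*, -1.96 for *DES*, -1.16 for *SMTN* and -1.06 for *SYNPO2*. It was 3.04 for *MYH14*, 1.15 for *FHL2*, 0.94 for *PDLIM7*, 0.92 for *LIMA1*, 0.57 for *CNN2* and 0.53 for *TAGLN2*. For *FLNC* the call held in 4 of the 12 fits with 1 sample left out and for *PDLIM7* and *SYNPO2* in 3 each, and for the other 9 of these genes in all 12. The highest adjusted p in those fits was 0.0659 for *FLNC*, 0.0935 for *PDLIM7* and 0.0924 for *SYNPO2*.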

How the results depend on the processing

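Directions and calls of the members were recomputed under each alternative, up to 24 settings a comparison. Of 904 recomputed log2 changes of members, 871 kept direction and side of the threshold, 12 passed newly, 13 no longer passed and 8 changed sign. Some settings, such as leaving out a sample of the other line, cannot move a log2 change within a line, only its p. All 105 recomputed family shares moved by less than the spread between replicates, but with 1 of 3 samples left out they could not do otherwise. The 8 sign changes concerned values that were not called, each with 1 sample left out. Their ranges over those fits were -0.0060 to 0.15 for *CNN3* in SW1990, -0.15 to 0.76 for the line difference of *TAGLN*, -0.22 to 0.090 for *TPM2* in CFPAC-1 and, between lines in positive cells, -0.066 to 0.17 for *ACTA2* and -0.22 to 0.14 for *CNN3*. The count of members lower in CFPAC-1 was 1 in place of 2 with a pseudocount of 1, with voom and with an adjusted p under 0.01, and ranged from 0 to 2 with a sample left out. It was 0 without negative replicate 1 and without positive replicate 2 of CFPAC-1, and 1 without positive replicate 1. *TAGLN* was the member lost with voom and at the stricter p, and *MYL9* with the larger pseudocount (-0.99). With voom *TAGLN* was called in SW1990.

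Centring each sample on its median left 3 members, not 5, called higher in negative SW1990 than in negative CFPAC-1 cells, and leaving out a sample left 4 to 5. Under it the genes called higher and lower went from 917 and 671 to 724 and 858 in CFPAC-1, and from 1487 and 2887 to 1987 and 1988 for the difference between lines. In the cytoskeleton list the genes lower in CFPAC-1 were 2 after centring and 0 with a pseudocount of 1, against 1, and those lower in SW1990 were 2 with a pseudocount of 1, against 5. *FLNC* was not called in CFPAC-1 when each line was fitted alone (adjusted p = 0.0588), nor was *TAGLN3* (adjusted p = 0.0554). The line difference of *PDLIM7* was lost without the filter (0.0553) and without the trend (0.0657), and that of *SYNPO2* after centring (0.0775), with quantile normalization (0.136) and with a pseudocount of 0.01 (0.0745).

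Same-numbered sorts did not all deviate together (correlations of 0.18, 0.016 and 0.12 in SW1990 and -0.020, 0.0013 and -0.059 in CFPAC-1). Sorts of different number ran from -0.25 to 0.16 in SW1990 and from -0.033 to 0.042 in CFPAC-1. The numbers were therefore not taken to pair the samples, though these few values cannot settle whether positive and negative cells of 1 number were sorted together. With a replicate block 749 genes were called higher and 1212 lower in SW1990, 924 and 663 in CFPAC-1, no call of a member changed, and of the named list genes the line difference of *SYNPO2* was lost (0.0948). *CNN1* and *ACTG2* were too low to test at this depth.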
